A study of Caenorhabditis elegans with 2 samples.

Results

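The alpha and beta tubulin genes of Caenorhabditis elegans described here are 8 of 19973 protein-coding genes on the nuclear chromosomes, taken by name. Of these, tba-1, tba-2, tba-4, tbb-1 and tbb-2 are broadly expressed, and tbb-4, mec-7 and mec-12 are neuronal. Binding of the TBP-like factor TLF-1 around their starts was read from 4 deposited peak lists of a chromatin immunoprecipitation and sequencing (ChIP-seq) experiment. The worms were whole young adults of strain OP749 at 65.5 hours, sexes pooled, raised from starved L1 larvae. They carried wgIs749, an integrated tlf-1 transgene with a TY1, EGFP and 3xFLAG tag and unc-119(+), in an unc-119 (tm4063) background, and an antibody against GFP was used. There was 1 group of 2 biological replicates, both of this tagged line, and no untagged worms were analysed, so the data hold no comparison between conditions and every value below is a description. The replicate lists held 24495 and 23453 peaks for replicates 1 and 2, and the list pooled from both held 28153. The reproducible set, thresholded by the authors on the irreproducible discovery rate and called the IDR set below, held 1880 peaks, which were the 1880 strongest of the pooled list. Read depth is unknown.

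Tubulins are the building blocks of microtubules: an alpha and a beta subunit join into a heterodimer, and heterodimers stack into the wall of the tube. Broadly expressed tubulins serve the mitotic and meiotic spindles and the cytoplasmic network of most cells, including the germline. In the worm, mec-7 (beta) and mec-12 (alpha) form the specialised microtubules of the touch receptor neurons, and tbb-4 (beta) acts in ciliated sensory neurons. TLF-1 belongs to the family of TBP, the protein that binds the TATA box of promoters, and in animals such relatives serve promoters that TBP does not.

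Strong TLF-1 peaks were found at tbb-1 and tba-2. A summit, the position of highest signal in a peak, was assigned to a gene when it lay from 1000 bp before to 500 bp after its annotated start, and distances upstream are negative. An IDR summit lay in the window of 2 of the 8 genes, tbb-1 and tba-2, both broadly expressed, against 6.98% of all protein-coding genes. That is 2 of the 5 broadly expressed genes and 0 of the 3 neuronal ones, for which the 95% Wilson interval reaches 56.1% and covers counting error only. The pooled list, which also holds weak peaks, had a summit in the window of all 5 broadly expressed genes and of none of the 3 neuronal genes, against 40.4% of all coding genes. The replicate 1 list had one at all 5 broadly expressed genes and at 1 neuronal gene, against 37.2% of coding genes. The replicate 2 list likewise had one at all 5 and at 1 neuronal gene, a different one, against 36.8%. With a window from 500 bp before to 100 bp after the start, the genes with an IDR summit were again tba-2 and tbb-1, against 5.28% of coding genes. In whole worms, binding in few cells and weak binding in many cannot be told apart, which bears on the neuronal genes in particular.

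**Figure D1:**
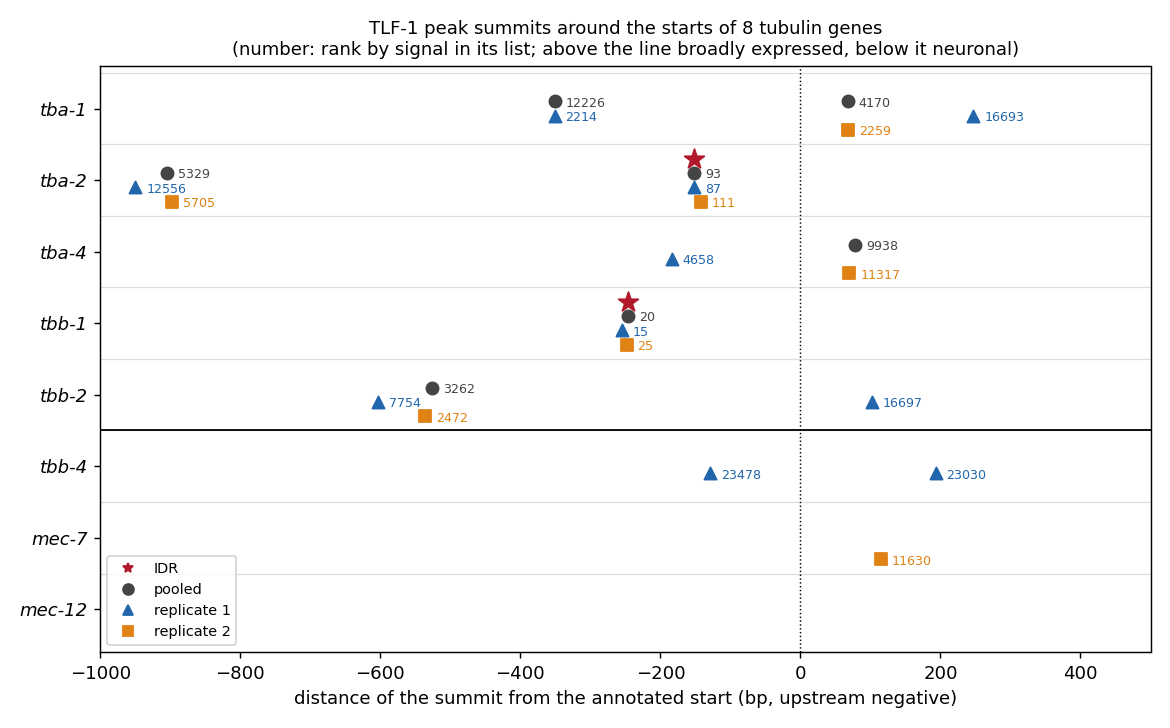
Positions of TLF-1 summits in the 4 deposited lists, by distance in bp from the annotated start of each tubulin gene (x axis), with each summit's rank by signal in its own list beside it. Summits of all 4 lists lie together at tbb-1, near -246 bp, and at tba-2, near -152 bp, and no summit was placed in the window of mec-12.

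At tbb-1, a broadly expressed beta tubulin gene (WBGene00006536, chromosome III, 10740868 to 10742432, minus strand), the peak ranked 20 of the 1880 IDR peaks. Its deposited signal value, a unit of the authors' peak caller that is comparable only within a list, was 571.3, against a median of 118.0 in the IDR set. In replicate 1 the signal was 281.4 and the rank 15, and in replicate 2 the signal was 284.1 and the rank 25. The summit lay at -246 bp in the IDR and pooled lists, at -255 bp in replicate 1 and at -248 bp in replicate 2, so both replicates placed it at nearly the same spot. Counting tbb-1 itself, 28 coding genes (0.14%) had a pooled summit ranked at least as well in their windows. The summit lay in the 377 bp between tbb-1 and rib-2, a divergent gene for a glycosyltransferase of heparan sulfate synthesis, at -132 bp from the start of rib-2. The peak itself, 10742544 to 10742829, ran past the rib-2 start at 10742810. Its signal cannot be given to either gene alone. The peak sequence, from RefSeq's copy of WBcel235 (the ce11 assembly), is shown on the tbb-1 strand up to the first base before rib-2. It was chosen because its signal was the highest of any summit in the windows of the tubulin genes examined. Capitals mark matches to the motifs searched.
tbb-1, chrIII:10742544-10742809, minus strand: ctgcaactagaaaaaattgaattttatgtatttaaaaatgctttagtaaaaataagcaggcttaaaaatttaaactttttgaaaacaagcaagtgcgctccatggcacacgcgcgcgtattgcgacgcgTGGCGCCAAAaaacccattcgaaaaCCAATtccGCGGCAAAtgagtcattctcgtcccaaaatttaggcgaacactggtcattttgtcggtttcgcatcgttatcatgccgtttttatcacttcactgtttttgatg
The first run of capitals spans -248 to -239 bp and holds the IDR summit. It contains GCGCCA on both strands, overlapping an E2F-like motif (TTTNNCGC with each N being C or G) on the opposite strand. A CCAAT box follows at -223 bp and a second E2F-like motif begins at -215 bp on the opposite strand. No TATAAA lay in this stretch. The 101 bp around the summit had a GC content of 53.5% and 12 CG pairs, against medians of 44.6% and 6 over all IDR summits. Those around the tba-2 summit stood at both medians, with 44.6% and 6.

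The other broadly expressed beta tubulin gene, tbb-2 (WBGene00006537, chromosome III, 4015910 to 4017627, minus strand), had a pooled summit but none in the IDR set. The pooled summit lay at -526 bp with a signal of 62.6, at rank 3262 of 28153, below the IDR limit of rank 1880. Replicate 2 had a summit at -536 bp with a signal of 41.6 and rank 2472, and replicate 1 one at -603 bp with a signal of 22.4 and rank 7754. The peak was thus ranked higher in replicate 2 than in replicate 1. Replicate 1 also had a weak summit at 102 bp, in a coding exon, at rank 16697. The pooled summit was 36 bp inside the non-coding RNA gene C36E8.10, whose strand is opposite to tbb-2. Counting tbb-2 itself, 2091 coding genes (10.5%) had a pooled summit ranked at least as well. For comparison with tbb-1, 50 bp on each side of the pooled summit of tbb-2 are shown. The same span is shown around an upstream summit at tba-4, an alpha tubulin gene described next. Only replicate 1 had this tba-4 summit, and the pooled list did not.
tbb-2, chrIII:4018103-4018203, minus strand: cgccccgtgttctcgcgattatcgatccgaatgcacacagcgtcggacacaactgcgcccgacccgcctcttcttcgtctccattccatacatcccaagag
tba-4, chrII:10918472-10918572, plus strand: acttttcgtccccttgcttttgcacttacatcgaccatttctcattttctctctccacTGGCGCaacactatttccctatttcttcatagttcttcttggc
The tbb-2 stretch held none of the motifs searched, and that of tba-4 held GCGCCA on the opposite strand at -176 bp, marked in capitals.

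The gene tba-4 (WBGene00006530, chromosome II, 10918706 to 10920211, plus strand) had the weakest best-ranked pooled summit of the 5 broadly expressed genes. It lay at 78 bp, in a coding exon, with a signal of 35.7 and rank 9938. Replicate 2 had a summit at 70 bp with a signal of 20.9 and rank 11317. Replicate 1 had its summit elsewhere, at -184 bp, with a signal of 28.2 and rank 4658. The replicates therefore placed their summits on opposite sides of the start. The nearest IDR summit was at 16846 bp, past the end of the gene, at rank 709. For scale, the median signal was 30.1 in the pooled list, 18.2 in replicate 1 and 20.6 in replicate 2.

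At tba-2, a broadly expressed alpha tubulin gene (WBGene00006529, chromosome I, 12964674 to 12966795, minus strand), the peak ranked 93 of 1880 in the IDR set with a signal of 347.2. In replicate 1 the signal was 174.5 at rank 87, and in replicate 2 it was 173.0 at rank 111. Summits were at -152 bp in the IDR list and replicate 1 and at -142 bp in replicate 2. At 252 bp, the IDR peak was narrower than the median of 404 bp, as was the tbb-1 peak at 286 bp. Pooled peaks of the members outside the IDR set were all exactly 404 bp wide. Whether narrowness goes with strength was not tested, and it is not shown to be particular to tubulin genes. The tba-2 peak lay within the 420 bp that separate tba-2 from pbs-2, a proteasome subunit gene upstream on the same strand. No other gene had this summit in its window. Counting tba-2 itself, 97 coding genes (0.486%) had a pooled summit ranked at least as well. A second, weaker peak lay inside pbs-2, with the pooled summit at -905 bp and rank 5329. Near the main summit, CCAAT occurred at -118 bp and, on the opposite strand, at -112 bp, with GCGCCA beginning at -110 bp and an overlapping E2F-like motif at -108 bp, both on the opposite strand. The second annotated start of tba-2 lies 524 bp downstream of the first, farther from this summit.

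Its close paralog tba-1 (WBGene00006528, chromosome I, 9785781 to 9787624, minus strand) had no IDR summit in the window. Its pooled summits were at 68 bp, in an intron, with a signal of 54.9 and rank 4170, and at -351 bp, with a signal of 32.2 and rank 12226. Replicate 1 had its best summit at -351 bp with a signal of 39.8 and rank 2214, and replicate 2 at 68 bp with a signal of 43.4 and rank 2259. The replicates thus gave tba-1 similar ranks from peaks that did not overlap. Replicate 1 also had a weak summit at 247 bp, close to the second annotated start at 234 bp. A strong IDR peak, ranked 32, lay just outside the window, with its summit at -1073 bp from tba-1 and at -28 bp from the divergent gene cox-5B, which encodes a subunit of cytochrome c oxidase. The near edge of that peak was at -911 bp, so tba-1 was counted as well, making 3 genes, when any overlap of the peak with the window was enough.

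**Figure D2:**
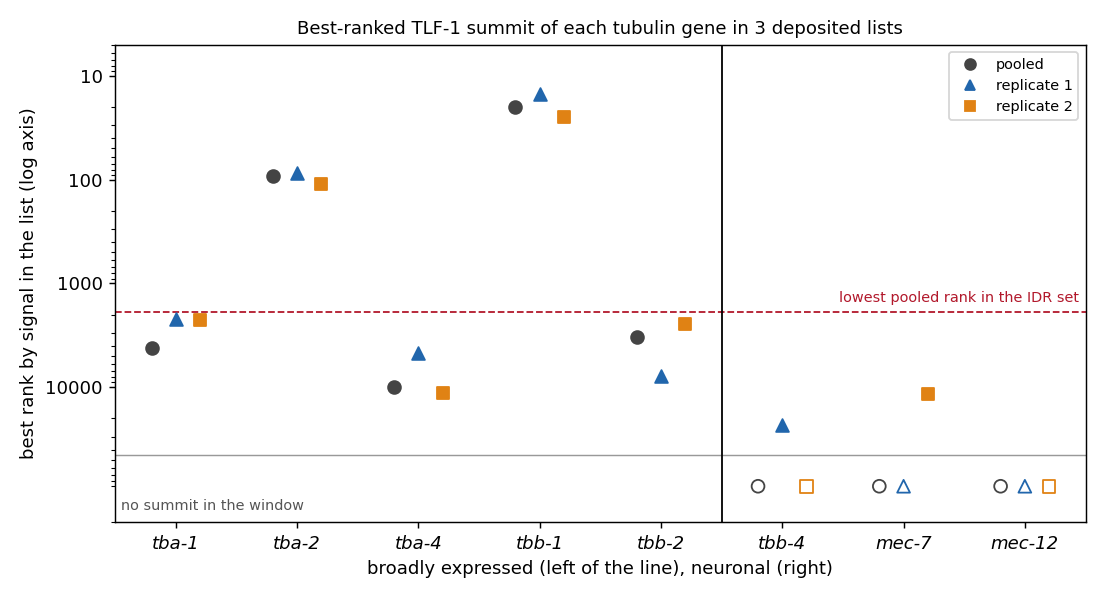
Best rank by signal (log axis, strongest at the top) of any summit in the window of each tubulin gene, for the pooled list and each replicate. Filled symbols of tbb-1 and tba-2 lie above the dashed line at rank 1880, those of the other broadly expressed genes lie below it, and open symbols mark lists with no summit in the window.

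The neuronal genes had at most weak summits, each in a single replicate. The sensory neuron gene tbb-4 (WBGene00006538, chromosome X, 9434452 to 9436893, minus strand) had replicate 1 summits at -129 bp, with a signal of 12.9 and rank 23478, and at 193 bp, with a signal of 13.0 and rank 23030 of 24495. The lowest signal in that list was 12.5, so these are near its floor. The touch neuron gene mec-7 (WBGene00003171, chromosome X, 7774856 to 7776689, minus strand) had 1 summit, in replicate 2, at 115 bp in the 5′ untranslated exon, with a signal of 20.7 and rank 11630. Such weakness was not particular to the neuronal genes. The replicate 2 summit of the broadly expressed gene tba-4 was nearly equal, with a signal of 20.9 and rank 11317. The touch neuron gene mec-12 (WBGene00003175, chromosome III, 3131574 to 3139234, minus strand) had no summit in its window in any list. The nearest pooled summits to the starts of tbb-4, mec-7 and mec-12 were at 4177, 1757 and 1362 bp, ranked 26378, 15213 and 25639. The nearest IDR summits were at -28959, -17790 and 71118 bp. The 150 bases before each annotated start are shown because the pooled list had no summit in them.
tbb-4, chrX:9436894-9437043, minus strand: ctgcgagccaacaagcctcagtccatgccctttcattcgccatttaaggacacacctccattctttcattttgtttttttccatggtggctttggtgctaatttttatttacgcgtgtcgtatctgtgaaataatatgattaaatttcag
mec-7, chrX:7776690-7776839, minus strand: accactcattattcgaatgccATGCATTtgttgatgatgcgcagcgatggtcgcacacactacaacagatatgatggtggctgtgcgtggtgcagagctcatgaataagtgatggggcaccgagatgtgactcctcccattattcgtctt
mec-12, chrIII:3139235-3139384, minus strand: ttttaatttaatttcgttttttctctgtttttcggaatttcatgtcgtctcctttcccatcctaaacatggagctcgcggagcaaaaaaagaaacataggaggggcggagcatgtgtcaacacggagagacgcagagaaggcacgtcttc
The capitals in mec-7, beginning at -129 bp, mark AATGCAT on the opposite strand, the core of the site of the touch neuron regulators UNC-86 and MEC-3. This word occurred in 4.52% of coding starts from 250 bp before to 50 bp after. None of the other motifs lay in these stretches.

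Chromosome and class were partly tied in these genes. Both tbb-4 and mec-7 are on X, where 3.52% of coding genes had an IDR summit and 35.0% a pooled summit, and no broadly expressed member is on X. The remaining neuronal gene, mec-12, is on chromosome III with tbb-1 and tbb-2, where the shares were 12.3% and 51.3%. For tbb-4 and mec-7, being neuronal and being on X cannot be told apart.

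The uniqueness of the sequence did not separate the classes. Tubulin genes have similar coding exons, so reads from one copy could be placed at another. Of the 36-base words in each window, 98.7% occurred once in the genome at tbb-2, where the repeated words lay after the start, and 99.9% at tba-4. At the other 6 genes, neuronal ones included, every such word occurred once. The read length is not given in the sources used here.

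Promoter composition varied among the 8 genes. From 250 bp before to 50 bp after the start, GC content was 39.0% in tba-1, 39.7% in tba-2, 41.0% in tba-4, 44.0% in tbb-1 and 31.3% in tbb-2. In the neuronal genes it was 47.0% in tbb-4, 47.3% in mec-7 and 38.0% in mec-12, and the median of all coding promoters was 34.3%. The 2 classes overlapped in GC content, and the highest values were those of neuronal genes. The gene tbb-1 stood highest for the CG pair, with 23, a count reached or undercut by 99.4% of promoters, against a median of 9. The other broadly expressed genes had 8 to 14 and the neuronal genes 10 to 16.

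Motifs were searched on both strands, and matches are given as descriptions. The E2F-like motif was present in the start windows of tba-2 and tbb-1 and in no other member, against 4.69% of all coding starts. GCGCCA was present in tba-2, tba-4 and tbb-1, against 5.08%. CCAAT was present in tba-1, tba-2, tbb-1, tbb-2 and mec-12, against 45.5%, and TATAAA in tba-1 and tba-4, against 37.9%. The X-box of ciliary genes and 2 NRF1-like words (GCGCATGCG and CATGCGC) were in none of the 8, against 0.466%, 0.0751% and 1.21% of all coding starts. Within 50 bp of the IDR summits, CCAAT and GCGCCA occurred at both tbb-1 and tba-2, against 17.4% and 12.0% of all IDR summits. The E2F-like motif occurred there at tbb-1 only, against 6.33%, and at both within 100 bp, against 10.2%. TATAAA occurred near neither, against 6.76% of IDR summits within 50 bp.

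Both IDR peaks ranked similarly in the 2 replicates. They were found in each replicate list by an overlap of at least 1 bp, as were 1879 of all 1880 IDR peaks. Leaving out rib-2, which has the same peak, the coding gene whose IDR peak had replicate signals nearest to those of tbb-1 was hsp-1, a constitutive Hsp70 chaperone, with signals of 289.0 and 306.1 in replicates 1 and 2. The distance was 0.11 on the log2 scale, among 1391 genes and over 2 samples. For tba-2 it was F36A2.7, with 170.9 and 170.3 and a distance of 0.038.

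**Figure D3:**
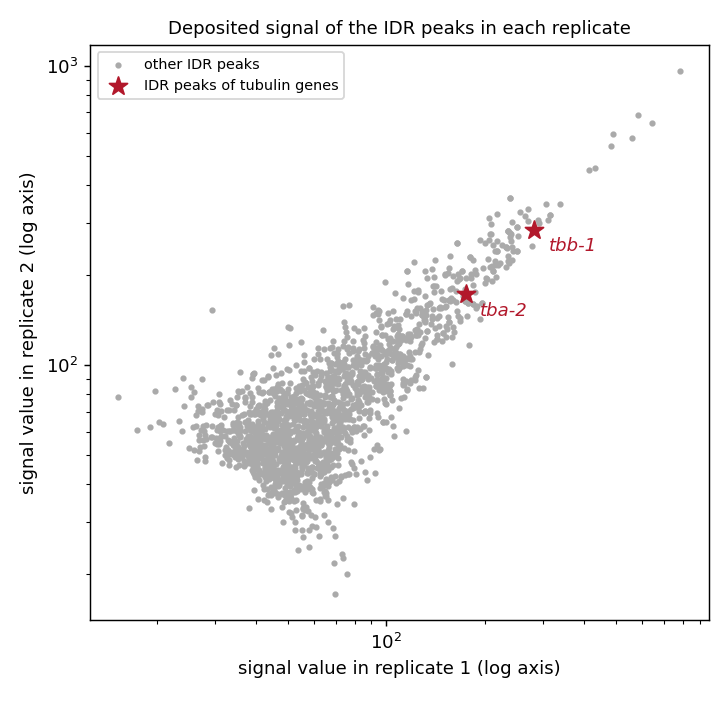
Deposited signal value of 1879 IDR peaks in replicate 1 (x axis) and replicate 2 (y axis), both on log axes, each point a peak. Each IDR peak takes the value of the strongest replicate peak that overlaps it. Neighbouring IDR peaks can therefore share a point, and a weak one can be drawn as strong. The tbb-1 peak (281.4 and 284.1) and the tba-2 peak (174.5 and 173.0), drawn as stars, lie in the upper part of the cloud.

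The rest of the tubulin family and its partners were counted by list, each read against the 6.98% of all coding genes. Of the 8 other tubulin genes, 2 had an IDR summit in the window. The gamma tubulin gene tbg-1, which nucleates microtubules, had one at -872 bp and rank 277, but this summit was at -141 bp from rpac-19, which encodes an RNA polymerase subunit. The alpha tubulin gene tba-7 had one at 299 bp and rank 1461, in a stretch with 3 annotated non-coding RNA starts. The beta tubulin ben-1, the target of benzimidazole drugs, and tbb-6 had only weak pooled summits at ranks 18348 and 19488. The genes tba-5, tba-6, tba-8 and tba-9 had none in the pooled list.

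Tubulin is folded by prefoldin, the CCT chaperonin and dedicated cofactors, and 7 of 20 genes listed for this process had an IDR summit. The chaperonin subunit genes cct-8, cct-5 and cct-1 ranked 12, 203 and 303, with summits at -442, -462 and -200 bp, and the prefoldin gene pfd-1 ranked 211 at -343 bp. All 4 of these summits also lay in the window of another coding gene (Y55F3AR.2, F25F2.1, mig-5 and F01G4.6). In the pooled list 18 of the 20 had a summit (90.0%, against 40.4% of coding genes). The listed genes tbca-1, tbcd-1, tbce-1, coel-1 and evl-20 had pooled summits only, ranked from 2816 to 6687. The cofactor gene tbcb-1 had no pooled summit.

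Microtubule-associated genes had an IDR summit at 8 of 20. The strongest were cls-2 (a CLASP protein) at rank 118, mei-2 (a subunit of katanin, which severs microtubules) at rank 327, spas-1 (spastin, another severing enzyme) at rank 613 and tpxl-1 (an activator of Aurora A kinase on spindles) at rank 685. The cls-2 summit was at -971 bp and at -287 bp from R107.5, and that of mei-2 was at -166 bp and at -107 bp from syp-6. Of 11 tubulin modifying genes, 1 had an IDR summit, hda-6, at rank 1605. This summit was also at -236 bp from the coding gene F41H10.4 and at -96 bp from a piRNA gene. The acetyltransferase gene mec-17, which modifies MEC-12 in touch neurons, had no pooled summit. Of 5 actin genes, 1 had an IDR summit, act-2, at rank 852. The act-2 summit also lay in the windows of non-coding RNA genes, among them T04C12.18, at 66 bp.

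None of 10 touch receptor neuron genes had an IDR summit, for which the Wilson interval reaches 27.8%. In the pooled list 2 of the 10 had a summit, against 40.4% of coding genes. They were mec-6, at rank 1967 and -397 bp, just below the IDR limit, and mec-4, a channel subunit gene, at rank 28059 of 28153. The counts of both neuronal sets were small, 0 of 3 and 0 of 10, and their intervals reach 56.1% and 27.8%. In sets this small, the interval of a count of 0 holds 6.98% in any case. The intervals therefore decide nothing about these sets.

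**Figure D4:**
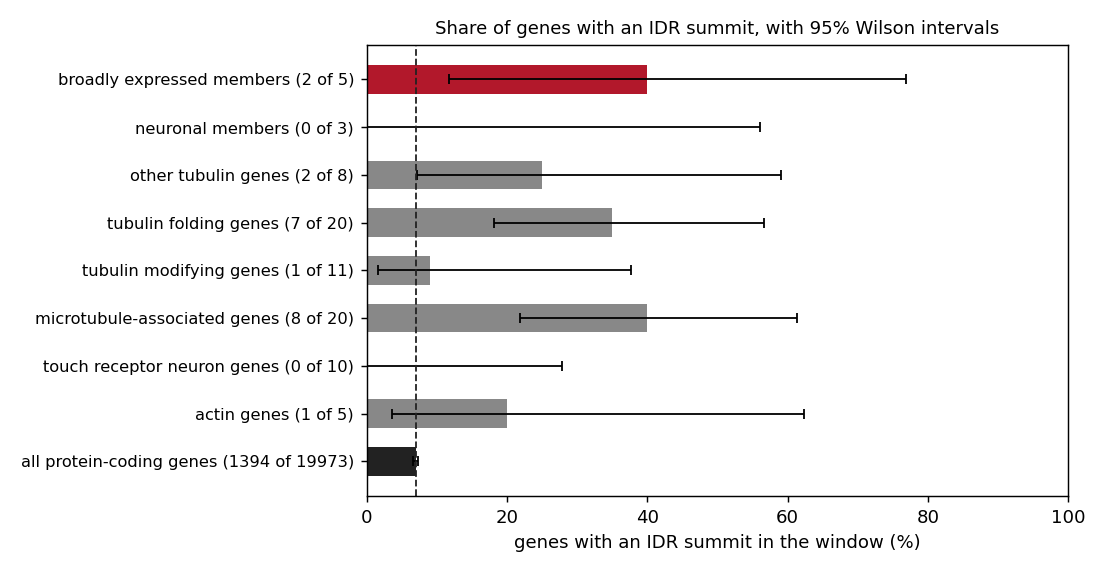
Percent of genes with an IDR summit from 1000 bp before to 500 bp after the start, for each list of genes and for all protein-coding genes (bottom bar and dashed line, 6.98%), with 95% Wilson intervals as error bars. Broadly expressed tubulin genes stand at 2 of 5 and neuronal ones at 0 of 3, with wide intervals. The lists were chosen by name with earlier results of these data known. Their genes are not random draws, so the intervals test nothing, whether or not they reach the dashed line.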

How the data were processed

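ChIP-seq peak lists of 2 biological replicates on ce11 were analysed. Per the labels' README files, the authors derived each replicate list from its alignments and a shared control, the pooled list from both, and the IDR set from those 3. The sources used here name no caller, aligner, IDR threshold or read depth. The deposited signal value of each peak is the authors' own and orders the peaks of each list, with no use between lists. The -log10 q-value in the deposited lists sat at its maximum for 85.2% of IDR peaks and was not used for ranking. Starts came from Ensembl release 115 (WBcel235, the same assembly), and sequence from RefSeq. A summit is the peak start plus the deposited offset. No test was made, since there is 1 group of 2 samples. Members and lists were chosen with earlier results of these data known. The genes named are all members, genes sharing their IDR summits, up to 4 genes per list with the strongest IDR summits and the nearest gene by replicate signal, leaving out genes with the same peak. Other named genes were chosen after their values were seen. Intervals are 95% Wilson intervals. Assignment was tested on simulated data. Alternatives covered windows, starts, thresholds, overlap and each replicate alone. Versions were matplotlib 3.10.9, pandas 2.3.3, numpy 2.4.6, Python 3.11.15 and scipy 1.17.1.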

Additional observations from a re-analysis of the deposited data

How the results depend on the processing

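Of 101 values under alternative settings, 76 were labelled as close to the values reported and 25 as moved. The limit for close differed between values. Without replicate 1, rank 25 against 20 for tbb-1 counted as close, but 111 against 93 for tba-2 as moved. Among the 76 are counts of 0 that narrower settings could not change, so this tally does not measure robustness. No IDR set can be made from 1 replicate, so leaving out a replicate means taking the 1880 strongest peaks of the other. The genes tba-2 and tbb-1 were counted in all 7 alternatives, tba-1 joined them only when overlap of the peak with the window counted, and no neuronal member was counted in any. With that overlap the median position moved to -246 bp, against -199 bp. Among all coding genes 5.28% were counted with 500 bp before to 100 bp after, 3.45% with 250 bp before, 7.4% with every transcript start, 3.99% in the 940 stronger peaks and 7.43% by overlap. It was 6.59% without replicate 1 and 6.89% without replicate 2. Other tubulin genes had 0 in both narrower windows, 1 in the stronger peaks and 1 to 2 without either replicate. Folding genes had 3 with 250 bp before. Microtubule-associated genes had 5 and 3 in the narrower windows and 4 in the stronger peaks. Modifying genes had 0 in the stronger peaks and 0 to 1 without either replicate. Actin genes had 0 with 250 bp before and 0 to 1 without either replicate. Best ranks in single replicates ran from 2214 to 2259 for tba-1, 87 to 111 for tba-2, 4658 to 11317 for tba-4 and 2472 to 7754 for tbb-2. Narrower windows and the 940 stronger peaks hold fewer summits by construction. These settings could therefore only drop genes from the count, never add a neuronal one. The cause of other changes was not tested. The lists carry no read totals, so no limit set by depth can be given.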

Other observations

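Beyond the start windows, the IDR peak nearest to tbb-2 lay past its far end. It spanned 4015545 to 4015721 on chromosome III, ranked 440, and its summit was 249 bp beyond the end of tbb-2, in a coding exon of C36E8.4. No IDR summit lay within the body of any of the 8 genes. The pooled list had 3 summits within tba-2, 2 within tba-1, 3 within mec-12, and 1 each within tba-4 and mec-7. No share over all coding genes was computed for gene bodies, so these counts have no background. A longer gene has more room for summits, and mec-12, at 7661 bp, is the longest of the 8.

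The annotated starts of 4 of the 8 genes, tba-4, tbb-1, tbb-2 and tbb-4, directly follow the letters TTTCAG, against 12.3% of coding genes. These are the letters of the worm's splice acceptor, at which a leader RNA is joined to trans-spliced messages. For a trans-spliced message, transcription begins farther upstream than a start annotated at the acceptor. Whether these 4 genes are trans-spliced was not tested. Distances given for these genes are from the annotated start.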
